A study of Bos taurus with 24 samples.

Results

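The genes described are those that carry out autophagy, that build and use the lysosome, and that form the proton pump which acidifies it. They were chosen by gene symbol from the deposited expression table, as every entry named for the numbered ATG genes, ULK1 to ULK4, BECN1, the WIPI, MAP1LC3 and GABARAP families, SQSTM1, the lettered cathepsins (CTS), LAMP1 to LAMP3, the LAMTOR genes, or the V-ATPase subunits (ATP6V) and accessory proteins (ATP6AP). The choice used names and no measured value. It found 69 members among 11306 entries, and 66 of them were over 0.1 FPKM in at least 1 library and entered the tests together with 9526 genes in all. ATG4C, WIPI1 and ATP6V0D2 stayed at or under that level in every library and were not tested.

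The RNA came from bovine oocytes aspirated from living, non-lactating, non-pregnant Angus-based crossbred beef cows. The 4 groups were spring GV (collected in May at the germinal vesicle stage, before meiosis resumes), summer GV (July), spring MII (May, matured in vitro to metaphase of the second meiotic division) and summer MII (July). Each group held 6 libraries, each from a pool of 4 oocytes of 1 animal, with the cumulus cells that surround an oocyte stripped off enzymatically at both stages. Cows were sedated with xylazine and given epidural lidocaine before each aspiration, in both seasons. The MII oocytes were matured as cumulus complexes in a medium with FSH and fetal bovine serum, a culture that the GV oocytes did not undergo. Stage thus stands for that culture as well as for meiosis, and season stands for collection month. A single herd, too few for groups of separate animals, was aspirated again at each session, and part of each cow's complexes went to maturation. The groups therefore share cows, which libraries came from the same cow is not given in the sources used here, and the tests treat all libraries as independent.

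In autophagy, a kinase complex built around ULK1 or ULK2 starts a membrane, a lipid kinase complex with beclin 1 (BECN1) marks it, and 2 ubiquitin-like pathways attach ATG12 to ATG5 and LC3 or GABARAP proteins to lipid, so that the membrane closes around cargo and fuses with a lysosome. The lysosome digests the cargo with cathepsins and other hydrolases in an acid interior that the V-ATPase maintains: its V1 sector burns ATP in the cytosol and turns its V0 sector, which carries protons through the membrane. The Ragulator complex (LAMTOR1 to LAMTOR5) sits on the outer face of the same membrane, tethers the Rag GTPases and takes part in switching on mTORC1, the kinase that holds autophagy in check when nutrients are plentiful. Oocytes store maternal mRNA during growth and transcribe little after meiosis resumes, so maturation is known as a time when stored messages are used up or removed at unequal rates.

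The unit decides how far levels can be read. The deposited values are FPKM by the study's methods, yet they match read counts divided by the full genomic span of each gene, introns included: after the 0.01 that every value carries was taken off and the rest multiplied by the listed span, 98.1% of 236920 values lay within 0.1 of a whole number of steps. Levels of different genes are therefore not compared here, since a long gene with many introns gets a low FPKM, and values of 1 gene are compared between libraries. The steps also gave the reads behind each value, and recovered reads scaled to a common library total are called RPM here. Recovered reads over the table ran from 324654 in spring GV replicate 6 to 28207672 in summer GV replicate 5, with a median of 3836564.5. Spring GV replicate 6, summer GV replicate 2 and spring MII replicate 6 had under 70% of their reads mapped in the study's library list, and results that lean on them are also given without them.

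The libraries carried the defining messages of oocytes: 12 of 15 listed oocyte markers were in the table and all 12 were tested, with summed levels of 468 to 879 (median 766) FPKM in spring GV, 654 to 1903 (median 848) in summer GV, 826 to 1069 (median 985) in spring MII and 811 to 1220 (median 989) in summer MII oocytes. Of 20 cumulus and granulosa cell markers, all were in the table and 17 were tested, and the 20 summed to 19 to 557 (median 30.6) FPKM in spring GV, 15.5 to 61.5 (median 25.9) in summer GV, 21.6 to 127 (median 36.6) in spring MII and 18.9 to 53 (median 36.7) in summer MII oocytes. The highest sum was in spring GV replicate 6, and the second highest of that group was 184 FPKM, in a library that is not among the poorly mapped ones. FSHR, the FSH receptor of granulosa cells, had no read in 21 of the 24 libraries, the most of that list. The next were AMH, TNFAIP6 and HSD3B1, with none in 15, 14 and 13. Other markers went the other way, with highest values of 392 FPKM for KRT18, 75.7 for VIM, 37.2 for INHA and 20.3 for FST. GJA1, KRT8 and KRT18 were among those with reads in every library. HAS2, the cumulus hyaluronan synthase, was the 1 marker of that list called, higher in MII in both seasons. Of 8 leukocyte markers, 5 were in the table and 2 were tested, and the 5 summed to at most 0.751 FPKM in any library. The part of these cells in the results was not tested: the fits without the 3 poorly mapped libraries keep the spring GV library at 184 FPKM. In pooled oocytes, fewer cells contributing and less RNA per cell cannot be told apart.

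The comparison of MII with GV oocytes asks which of these messages changed in their share of the measured RNA during maturation. All deposited columns share a common total, so a fall or rise here is one of share, and amounts per oocyte were not measured. The study captured mRNA before amplifying it, and whether capture of a message differed between the stages was not tested. On the deposited scale a small set was called lower in both seasons, by several fold, while close partners in the same complexes were not called lower. LAMTOR4 and LAMTOR2 of Ragulator, ATP6V1F, ATP6V1E1 and ATP6V0C of the proton pump, GABARAP, and ATG101 of the ULK complex were lower in MII oocytes in May and again in July, by 3.01-fold to 9.66-fold in mean FPKM in spring and 2.64-fold to 10.3-fold in summer. LAMP2, a glycoprotein of the lysosomal membrane, was the 1 member called higher, in spring. The 7 of 66 members called lower in both seasons stand beside 7.3% of all genes tested, and the 0 called higher in both beside 1.42%. The set depends on the scale. On RPM 15 members were called lower in both seasons, beside 22.8% of all genes. They include the pump subunits ATP6V1D, ATP6V0A1, ATP6V0D1 and ATP6V0E1, which were not called on the deposited scale.

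The test was limma on log2(FPKM + 1) over all 9526 genes, and a call needed both a fold over 2 and p under 0.05 before adjustment. In spring, 7 of 66 members were called lower in MII, beside 8.25% of all genes tested, and 1 was called higher, beside 3.57%. In summer, 8 were called lower, beside 9.26%, and 0 higher, beside 2.2%; the count higher at a Benjamini-Hochberg adjusted p under 0.05, whatever the fold, was 3 there, beside 7.67%. At that adjusted threshold 17 members were lower in summer, beside 23.1%, while in spring 12 were lower, beside 14.7%, and 4 higher, beside 9.45%. The members were thus called about as often as genes at large, and their median log2 fold change was -0.0057 in spring and -0.02 in summer, where all genes had -0.031 and -0.025. Individual members differed much more than that: in spring 33 were above 0 and 33 below, between -3.19 and 1.12, and in summer 29 were above and 37 below, between -3.25 and 0.91.

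**Figure D1:**
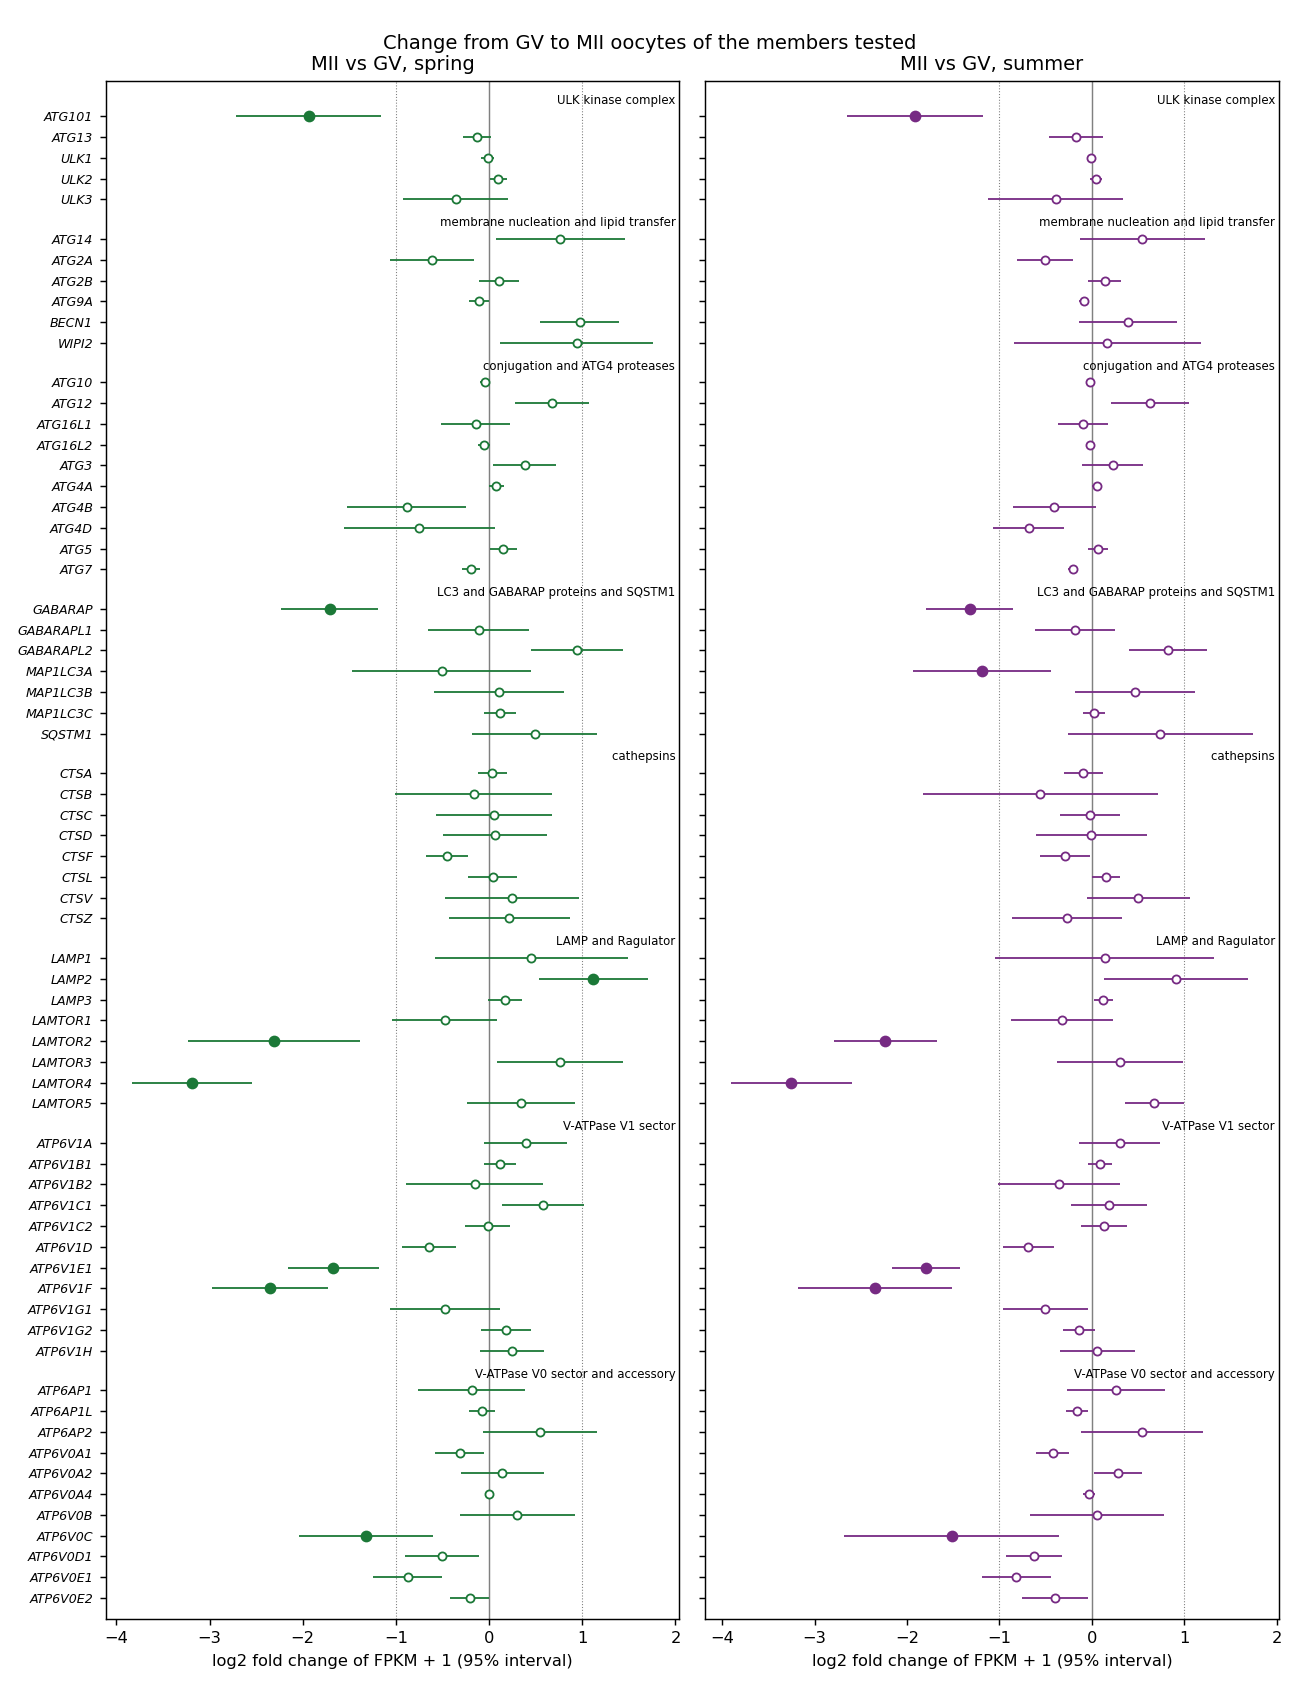
Log2 fold change from GV to MII oocytes of the 66 members tested, in spring (left) and summer (right), with 95% intervals from limma on log2(FPKM + 1), grouped by role; filled points are members called (fold over 2, p under 0.05 before adjustment) and dotted lines mark a 2-fold change. The filled points lie on the lower side in both panels, with LAMTOR4 lowest at -3.19 and -3.25, and LAMP2 at 1.12 in spring is the exception.

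Among the Ragulator subunits, LAMTOR4 changed most. Its message, from chromosome 25, 36788650 to 36791966, minus strand of UMD3.1.1, measured 49.6 to 87.9 (median 58.6) FPKM in spring GV and 4.06 to 15 (median 4.95) in spring MII oocytes. In summer it measured 36.4 to 64 (median 54.9) in GV and 1.85 to 9.98 (median 5.40) in MII oocytes. Every MII library was below every GV library in both seasons. The log2 fold change was -3.19 ± 0.3 (SE) in spring (limma, adjusted p = 3.37e-05) and -3.25 ± 0.3 in summer (adjusted p = 1.48e-05). Mean FPKM fell 9.66-fold and 10.3-fold. The exact permutation test over libraries gave two-sided p = 0.00216 in each season, the smallest that 6 against 6 libraries can give.

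LAMTOR5, with which LAMTOR4 forms a dimer, was not lower in MII oocytes. It measured 16.9 to 44.9 (median 27.1) FPKM in spring GV and 27.6 to 48.4 (median 36.5) in spring MII oocytes, groups that overlapped, and 23.3 to 30.1 (median 26.9) in summer GV against 35.7 to 49.5 (median 43.3) in summer MII oocytes, groups that did not. Its log2 fold change was 0.34 ± 0.27 in spring (limma, adjusted p = 0.360) and 0.67 ± 0.15 in summer (adjusted p = 0.00451), a rise under the 2-fold limit. On RPM the summer value was 0.48 with adjusted p = 0.0941 by limma, and with median-of-ratios scaling 0.69 with adjusted p = 0.0688, so the rise did not pass the adjusted threshold on either.

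The second dimer of the complex showed the same contrast. LAMTOR2 (chromosome 3, 14763799 to 14766876, minus strand) measured 10.5 to 40.9 (median 30.5) FPKM in spring GV and 0.849 to 11.1 (median 5.51) in spring MII oocytes. In summer the levels were 24.2 to 36.4 (median 31.1) in GV and 2.79 to 9.32 (median 6.42) in MII oocytes. The summer groups were apart, and in spring only the lowest GV library, replicate 6, reached into the MII range. LAMTOR2 fell by 5.24-fold in spring (log2 fold change -2.31 ± 0.43, limma, adjusted p = 0.00248) and by 4.96-fold in summer (-2.23 ± 0.26, adjusted p = 6.28e-05). Its partner LAMTOR3 had a log2 fold change of 0.76 ± 0.31 in spring and 0.3 ± 0.31 in summer (limma, adjusted p = 0.0910 and 0.489). LAMTOR1, the lipid-anchored subunit that holds the others on the membrane, had -0.48 ± 0.26 and -0.32 ± 0.25 (adjusted p = 0.192 and 0.358).

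Both dimers can be read inside each library, where depth and scaling cancel. For every read of LAMTOR5 there were 0.964 to 2.98 (median 1.92) reads of LAMTOR4 in spring GV and 1.18 to 1.79 (median 1.62) in summer GV oocytes. After maturation the ratio was 0.0744 to 0.416 (median 0.114) in spring and 0.0286 to 0.214 (median 0.0885) in summer. The ratio of LAMTOR2 to LAMTOR3 was 0.414 to 2.40 (median 0.783) and 0.447 to 0.864 (median 0.703) in spring and summer GV oocytes, and 0.0137 to 0.276 (median 0.0908) and 0.0343 to 0.193 (median 0.101) in MII oocytes. Neither ratio overlapped between stages in either season. These pairs, and those of the other complexes below, were picked after their values were seen, so the ratios carry no test.

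**Figure D2:**
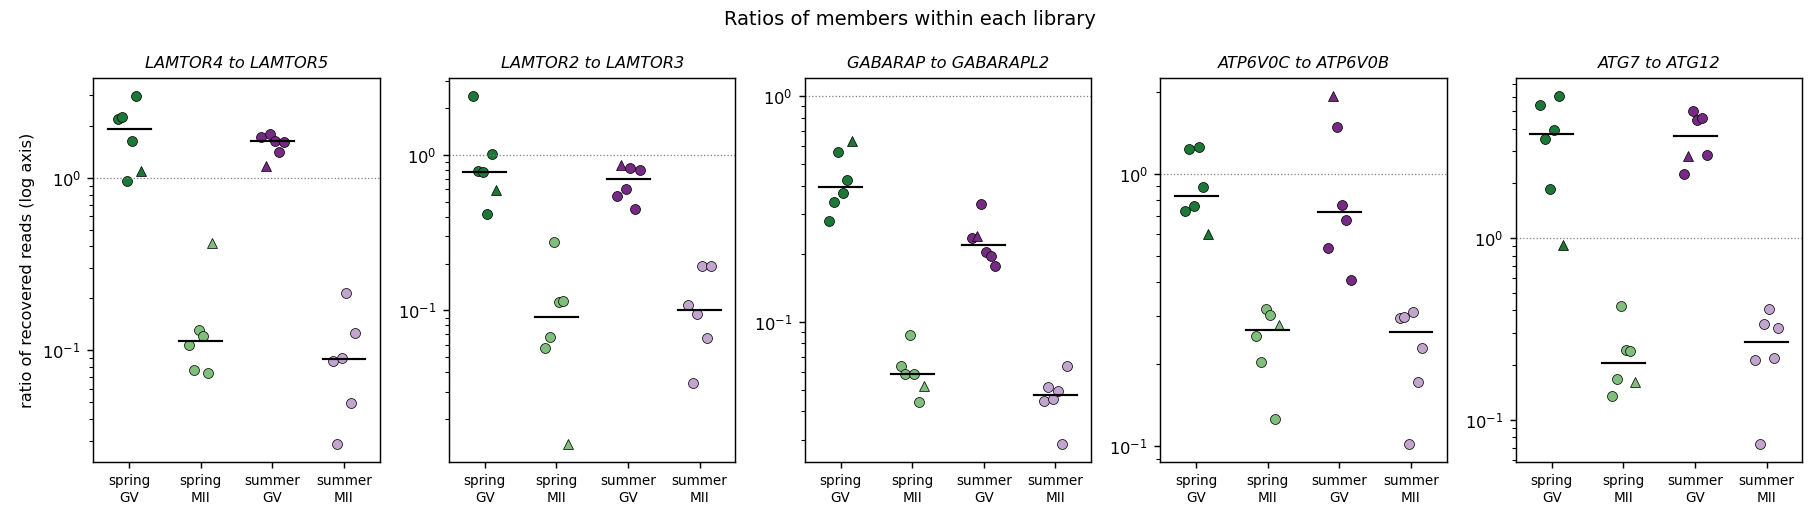
Ratio of recovered reads of 2 members within each library, on a log axis, by season and stage; points are libraries, triangles the 3 libraries with under 70% of reads mapped, bars the group medians, and the dotted line a ratio of 1. In each panel the MII libraries lie below the GV libraries of their season, for LAMTOR4 to LAMTOR5 at medians of 0.114 and 0.0885 against 1.92 and 1.62.

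Of the LAMP glycoproteins, which line the lysosomal membrane, LAMP2 rose in spring. It is needed for the fusion and turnover of autophagosomes, and one of its isoforms serves chaperone-mediated autophagy. LAMP2 (chromosome X, 4846778 to 4879917, plus strand) measured 1.32 to 3.25 (median 2.06) FPKM in spring GV and 3.31 to 12.3 (median 5.36) in spring MII oocytes, without overlap. In summer it measured 1.94 to 8.57 (median 2.60) in GV and 2.83 to 12.3 (median 7.45) in MII oocytes, and the highest GV library, replicate 2, lay inside the MII range. The spring rise was 2.83-fold in mean FPKM (log2 fold change 1.12 ± 0.27, limma, adjusted p = 0.00994), and summer gave 0.91 ± 0.36 (adjusted p = 0.0715). Without the poorly mapped libraries the log2 fold change was 0.99 in spring, just under the 2-fold limit, and 1.15 in summer, past it. LAMP1 and LAMP3 did not pass the test in either season, with log2 fold changes of 0.45 ± 0.48 and 0.17 ± 0.083 in spring.

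In the V1 sector, the ATP-burning head of the pump, ATP6V1F and ATP6V1E1 were called lower in both seasons out of 11 subunits tested. ATP6V1F, which with ATP6V1D forms the central shaft (chromosome 4, 93640142 to 93642826, plus strand), measured 41.9 to 123 (median 86.9) FPKM in spring GV and 9.65 to 22.4 (median 14.4) in spring MII oocytes. Summer levels were 21.6 to 96.9 (median 79.1) in GV and 5.37 to 23.1 (median 12.3) in MII oocytes, where only GV replicate 2, the lowest of its group, reached the MII range. Its mean fell 5.55-fold in spring (log2 fold change -2.35 ± 0.29, limma, adjusted p = 0.000191) and 5.55-fold in summer (-2.34 ± 0.38, adjusted p = 0.000692).

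ATP6V1E1, a peripheral stalk subunit (chromosome 5, 109564501 to 109578133, minus strand), measured 4.32 to 9.35 (median 6.69) FPKM in spring GV and 0.728 to 2.14 (median 1.26) in spring MII oocytes. The summer values were 5.14 to 8.61 (median 7.59) in GV and 0.783 to 2.23 (median 1.37) in MII oocytes. No MII library reached a GV library in either season. It fell by 4.84-fold in spring and 5.17-fold in summer, with log2 fold changes of -1.67 ± 0.23 and -1.79 ± 0.17 (limma, adjusted p = 0.000364 and 1.70e-05).

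ATP6V1D, the other shaft subunit, also passed the adjusted threshold in both seasons, at -0.64 ± 0.13 and -0.69 ± 0.13 (limma, adjusted p = 0.00488 and 0.00141). Its levels were low, 0.433 to 1.39 (median 0.820) FPKM in spring GV and 0.0509 to 0.314 (median 0.208) in spring MII oocytes, so the added pseudocount of 1 shrinks its fold change, and the ratio of mean FPKM was 4.61-fold in spring and 5.76-fold in summer. The other 8 V1 subunits did not pass it. They include ATP6V1A, the catalytic subunit, at 0.39 ± 0.21 and 0.3 ± 0.2, ATP6V1B2, which joins it in the catalytic ring, at -0.15 ± 0.34 and -0.35 ± 0.3, and ATP6V1H, a regulatory subunit, at 0.24 ± 0.16 and 0.059 ± 0.19. ATP6V1C1 and ATP6V1G2 lie wholly within listed spans of POLR2K and an H2B entry on the same strand, so the assignment of their reads is uncertain.

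In the V0 sector and its accessory proteins, 1 of 11 tested was called lower in each season. This was ATP6V0C (chromosome 25, 2014229 to 2019604, plus strand), the proteolipid that builds most of the proton-carrying ring. It measured 5.19 to 20.9 (median 11.2) FPKM in spring GV and 1.62 to 5.54 (median 4.59) in spring MII oocytes. In summer it measured 3.85 to 47.2 (median 6.34) in GV and 1.07 to 4.97 (median 3.13) in MII oocytes. The ranges overlapped in both seasons, and in summer GV the top value came from replicate 2. The log2 fold change was -1.32 ± 0.33 in spring and -1.52 ± 0.54 in summer (limma, adjusted p = 0.0124 and 0.0479). Without the poorly mapped libraries it was -1.33 and -1.08.

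ATP6V0B, the companion proteolipid of the ring, measured 9.76 to 35.5 (median 15.1) FPKM in spring GV and 17 to 28.4 (median 21.1) in spring MII oocytes, with wide overlap in both seasons. Its log2 fold change was 0.3 ± 0.29 in spring and 0.055 ± 0.33 in summer (limma, adjusted p = 0.436 and 0.919). Reads of ATP6V0C per read of ATP6V0B were 0.603 to 1.25 (median 0.827) in spring GV and 0.126 to 0.319 (median 0.266) in spring MII oocytes, and 0.408 to 1.93 (median 0.723) against 0.102 to 0.311 (median 0.263) in summer.

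ATP6V0E1, a small membrane subunit, fell by 2.23-fold and 2.12-fold in mean FPKM, with no overlap between stages in either season (limma, adjusted p = 0.00347 and 0.00375). Its log2 fold changes of -0.87 ± 0.17 and -0.82 ± 0.17 stayed short of the 2-fold limit on the FPKM + 1 scale. In summer ATP6V0A1, ATP6V0D1 and ATP6AP1L were also lower at the adjusted threshold, by 3.13-fold, 3.14-fold and 3.09-fold in mean FPKM. The summed reads of all 11 V1 subunits were 1155 to 1929 (median 1504) RPM in spring GV and 756 to 833 (median 803) in spring MII oocytes, and 1102 to 1695 (median 1547) against 626 to 877 (median 757) in summer. For V0 and accessory members the sums were 849.6 to 1208 (median 905) and 424 to 628 (median 549) in spring, and 675 to 1214 (median 755) and 306 to 667 (median 515) in summer. On that scale the stages did not overlap for either sector in either season. The sums weight each subunit by its reads, and they rest on a scale on which the median of all genes was itself lower in MII by 0.34 in spring and 0.33 in summer (log2).

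**Figure D3:**
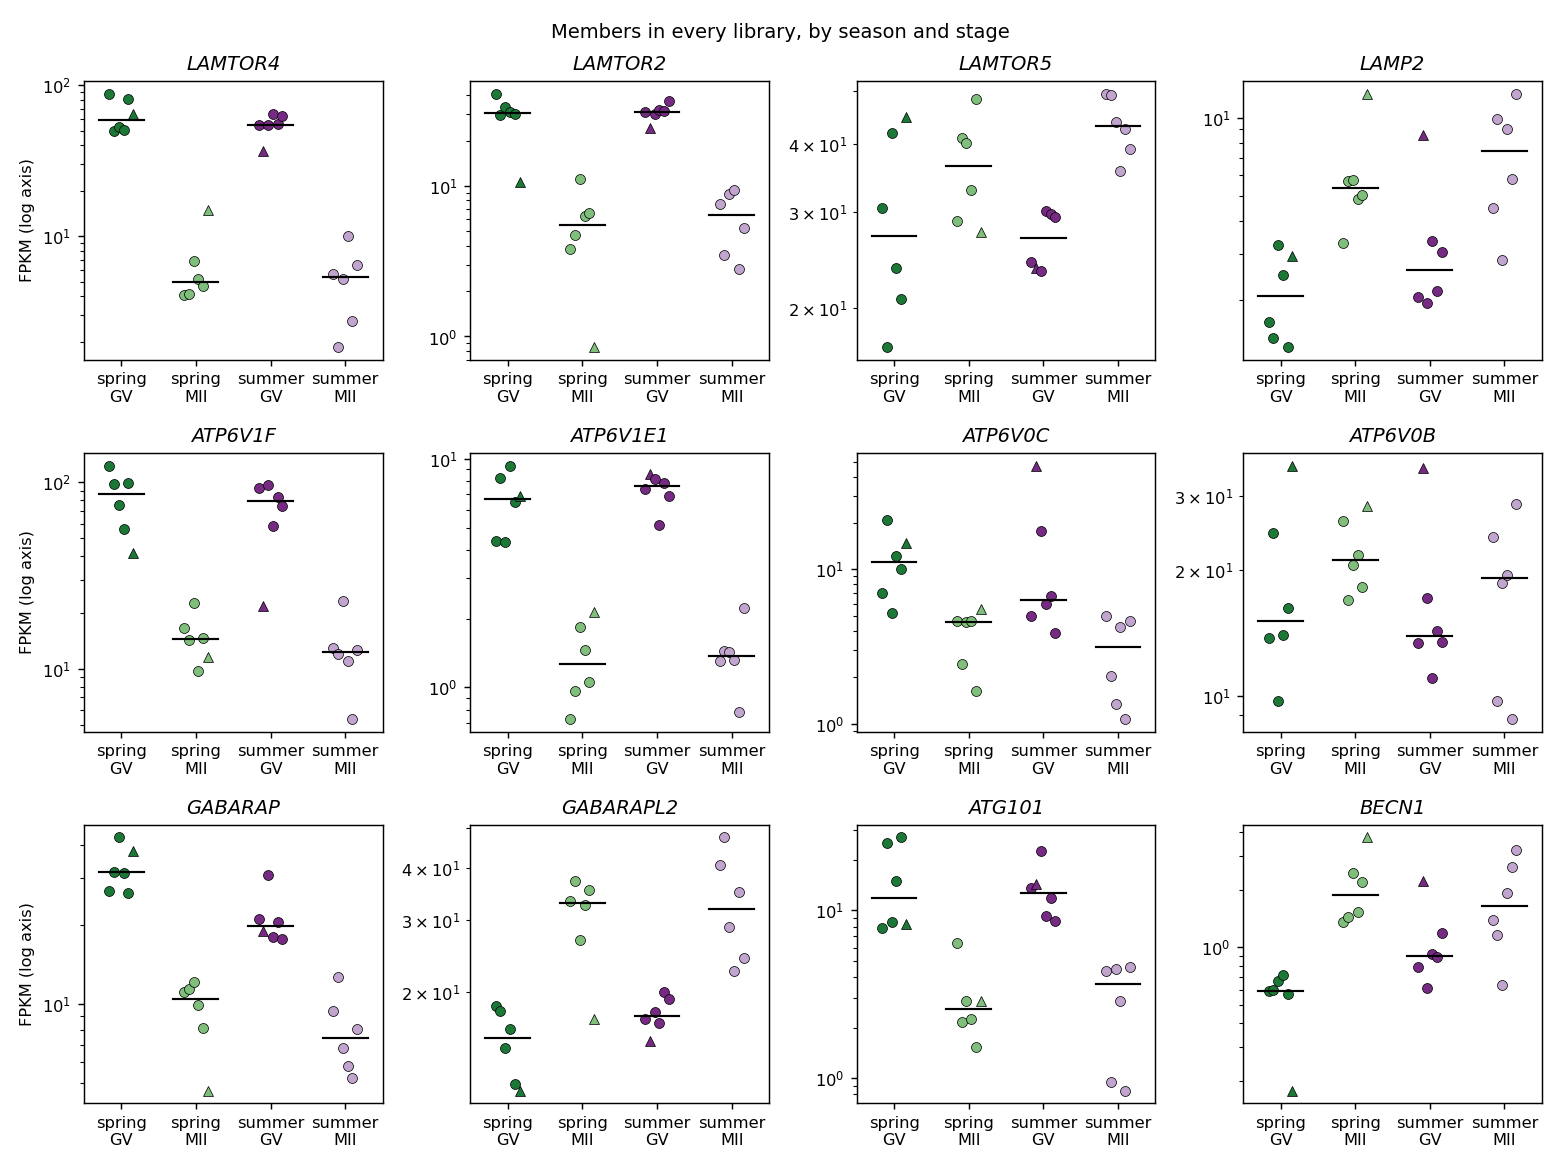
FPKM of 12 members in every library on log axes, by season and stage; circles are libraries, triangles the 3 libraries with under 70% of reads mapped, and bars the group medians. LAMTOR4, LAMTOR2, ATP6V1F, ATP6V1E1, ATP6V0C, GABARAP and ATG101 lie lower in MII in both seasons, while LAMTOR5, ATP6V0B and GABARAPL2 do not.

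The LC3 and GABARAP proteins coat the autophagosome, and SQSTM1 brings cargo to it. Of these 7 members, GABARAP was called lower in both seasons, MAP1LC3A in summer, and none was called higher. GABARAP (chromosome 19, 27586884 to 27588816, minus strand), which acts late, in closure and fusion, measured 26.3 to 42.8 (median 31.6) FPKM in spring GV and 4.69 to 12.2 (median 10.5) in spring MII oocytes. In summer the levels were 17.6 to 30.8 (median 19.7) in GV and 5.24 to 12.7 (median 7.41) in MII oocytes. Each season's stages were apart. GABARAP fell by 3.43-fold in spring (log2 fold change -1.71 ± 0.24, limma, adjusted p = 0.000443) and 2.64-fold in summer (-1.32 ± 0.22, adjusted p = 0.000704).

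GABARAPL2, a paralog also known as GATE-16, was higher in MII oocytes at the adjusted threshold in both seasons, short of 2-fold. It measured 11.5 to 18.5 (median 15.5) FPKM in spring GV and 17.3 to 37.2 (median 32.9) in spring MII oocytes, overlapping through MII replicate 6, and 15.2 to 20 (median 17.5) against 22.6 to 47.6 (median 31.9) in summer, without overlap. The log2 fold change was 0.94 ± 0.23 in spring and 0.82 ± 0.2 in summer (limma, adjusted p = 0.0102 and 0.00729). On RPM it was 0.71 and 0.64 with adjusted p = 0.0882 and 0.0673 by limma, so its rise holds at the adjusted threshold on the deposited scale and not on that one. Reads of GABARAP per read of GABARAPL2 were 0.279 to 0.632 (median 0.396) in spring GV, 0.176 to 0.331 (median 0.219) in summer GV, 0.0441 to 0.0870 (median 0.0586) in spring MII and 0.0286 to 0.0635 (median 0.0474) in summer MII oocytes.

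MAP1LC3A, one of the LC3 proteins (chromosome 13, 64497254 to 64498906, plus strand), was called lower in summer alone. It measured 4.96 to 10.9 (median 5.99) FPKM in summer GV and 0.588 to 5.09 (median 2.41) in summer MII oocytes, groups that overlapped slightly, and 1.04 to 11.1 (median 8.29) against 1.73 to 6.98 (median 4.25) in spring. The log2 fold change was -1.19 ± 0.34 in summer (limma, adjusted p = 0.0194) and -0.51 ± 0.44 in spring (adjusted p = 0.402), and the difference between the seasons did not pass the test (unadjusted p = 0.250, limma, adjusted p = 1). Without summer MII replicate 2 the summer change was -0.97, short of 2-fold, and with quantile normalization it was -0.90 with adjusted p = 0.0503 by limma.

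MAP1LC3B, the widely used autophagosome marker, had log2 fold changes of 0.11 ± 0.32 and 0.47 ± 0.3, and neither passed the test. SQSTM1, the p62 cargo receptor, measured 10.9 to 32.4 (median 18.5) FPKM in spring GV and 16.5 to 51.2 (median 25.1) in spring MII oocytes. In summer it measured 8.33 to 46.1 (median 15.8) in GV and 15.8 to 65.2 (median 25.2) in MII oocytes. Stages overlapped in both seasons, with log2 fold changes of 0.49 ± 0.31 and 0.74 ± 0.46 (limma, adjusted p = 0.259 and 0.244). Without summer GV replicate 2, a poorly mapped library, the summer value was 1.02 and met the call rule at an unadjusted p of 0.0332 by limma.

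Of the ULK complex, which starts autophagosome formation, ATG101 was called lower in both seasons and the other 4 members tested were not. ATG101 (chromosome 5, 27962234 to 27968040, minus strand) stabilises ATG13 within the complex. It measured 7.82 to 27.2 (median 11.8) FPKM in spring GV and 1.54 to 6.36 (median 2.57) in spring MII oocytes. Summer values were 8.67 to 22.4 (median 12.7) in GV and 0.842 to 4.60 (median 3.63) in MII oocytes. The stages were separate in both seasons, at log2 fold changes of -1.94 ± 0.36 and -1.91 ± 0.34 (limma, adjusted p = 0.00258 and 0.00119), or 5.08-fold and 4.41-fold in mean FPKM. ATG13 had -0.13 ± 0.07 and -0.17 ± 0.13 and ULK3 had -0.36 ± 0.26 and -0.39 ± 0.34. ULK1 and ULK2, the kinases themselves, stayed at or under 0.228 FPKM in every library, a level that also depends on their spans. ULK2, at a span of 41.5 kb, had a log2 fold change of 0.097 ± 0.043 in spring (limma, adjusted p = 0.113). It was called higher in spring with no pseudocount and with the span removed, and was not called on RPM.

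In membrane nucleation and lipid transfer, no member of 6 tested was called. ATG2A and ATG9A were lower in summer at the adjusted threshold, at log2 fold changes of -0.51 ± 0.14 and -0.086 ± 0.025 (limma, adjusted p = 0.0164 and 0.0185). ATG2A fell 17.8-fold in spring and 9.88-fold in summer in mean FPKM, without overlap in either season, and just missed that threshold in spring (limma, adjusted p = 0.0504). BECN1, the scaffold of the lipid kinase complex, measured 0.178 to 0.713 (median 0.591) FPKM in spring GV and 1.35 to 3.75 (median 1.87) in spring MII oocytes, without overlap. In summer the levels of 0.615 to 2.23 (median 0.904) in GV and 0.632 to 3.24 (median 1.65) in MII oocytes overlapped. Its log2 fold change was 0.97 ± 0.2 in spring (limma, adjusted p = 0.00396), just under 2-fold on this scale and 3.85-fold in mean FPKM, and 0.39 ± 0.25 in summer (adjusted p = 0.248). WIPI2, which reads the lipid mark and recruits the conjugation machinery, measured 1.75 to 7.75 (median 5.34) FPKM in spring GV, 5.09 to 19.4 (median 9.38) in spring MII, 3.53 to 18.9 (median 4.68) in summer GV and 2.17 to 19.3 (median 7.09) in summer MII oocytes. All 4 groups overlapped, with log2 fold changes of 0.94 ± 0.38 and 0.17 ± 0.47 (limma, adjusted p = 0.0865 and 0.815).

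Among the conjugation enzymes and the ATG4 proteases, no member of 10 tested was called, and ATG12 and ATG7 passed the adjusted threshold in both seasons in opposite directions. ATG4B in spring and ATG4D in summer also passed it, both lower in MII, by 16-fold and 3.9-fold in mean FPKM. Their log2 fold changes were -0.89 ± 0.3 and -0.69 ± 0.18 (limma, adjusted p = 0.0453 and 0.0108). ATG12, the ubiquitin-like protein joined to ATG5, measured 0.283 to 1.16 (median 0.774) FPKM in spring GV and 0.912 to 2.20 (median 1.92) in spring MII oocytes. In summer it measured 0.519 to 0.806 (median 0.638) in GV and 1.04 to 3.75 (median 1.32) in MII oocytes. The summer stages were apart and the spring stages overlapped. Mean FPKM rose 2.38-fold in spring and 2.56-fold in summer (log2 fold change 0.67 ± 0.18 and 0.63 ± 0.2, limma, adjusted p = 0.0188 and 0.0273).

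ATG7, the enzyme that activates both ATG12 and the LC3 and GABARAP proteins, spans 274 kb, the longest of the members, and its FPKM are small for that reason. They were 0.0785 to 0.331 (median 0.183) in spring GV and 0.0336 to 0.0508 (median 0.0393) in spring MII oocytes, and 0.153 to 0.277 (median 0.188) against 0.0322 to 0.0484 (median 0.0366) in summer. No MII library reached a GV library in either season. Mean FPKM fell 4.84-fold in spring and 5.16-fold in summer, although the log2 fold change of FPKM + 1 was -0.2 ± 0.046 and -0.21 ± 0.027 (limma, adjusted p = 0.00869 and 0.000129). In RPM, ATG7 measured 33.9 to 202 (median 113) in spring GV and 9.72 to 22.6 (median 16.2) in spring MII oocytes, with log2 fold changes of -2.68 in spring and -2.84 in summer on that scale. Reads of ATG7 per read of ATG12 went from 0.917 to 6.06 (median 3.72) in spring GV to 0.135 to 0.421 (median 0.204) in spring MII oocytes, and from 2.26 to 5.03 (median 3.65) to 0.0732 to 0.408 (median 0.268) in summer.

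None of the 8 cathepsins tested was called in either season. CTSB, a cysteine protease, measured 7.85 to 22.3 (median 10.9) FPKM in spring GV, 6.21 to 27.6 (median 6.87) in spring MII, 6.89 to 48 (median 14.3) in summer GV and 3.58 to 31.9 (median 7.55) in summer MII oocytes. The groups overlapped widely, at log2 fold changes of -0.17 ± 0.39 and -0.56 ± 0.59 (limma, adjusted p = 0.762 and 0.498). CTSF passed the adjusted threshold in spring, at -0.46 ± 0.11 (limma, adjusted p = 0.00824), and had -0.29 ± 0.12 in summer (adjusted p = 0.0904). On RPM CTSF was called lower in both seasons. The aspartic protease CTSD had 0.061 ± 0.26 and -0.0064 ± 0.28. CTSL and CTSV are close paralogs, so reads may be split between them.

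Because the deposited unit divides by genomic span, adding 1 before the logarithm presses the fold changes of long genes toward 0. It does the same to any gene of low FPKM, short ones such as CTSF, at a span of 5.57 kb, among them. The members called on this scale had a median span of 4.35 kb in spring and 3.2 kb in summer, against 13.5 kb over the members tested. On RPM with 1 added, a scale chosen after the values had been seen, 17 members were called lower and 4 higher in spring, beside 26.5% and 9.15% of all genes, and 20 lower and 1 higher in summer, beside 29.9% and 4.67%. The 8 members called on FPKM in each season were among them. As on the deposited scale, the members' shares were near those of genes at large.

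The genes added on RPM were mostly lower in MII. ATG2A, a lipid transfer protein, had log2 fold changes of -3.75 and -3.39 on that scale and -0.61 and -0.51 on FPKM + 1, and EHD1 overlaps it on the opposite strand. ATG10, the enzyme that hands ATG12 on to ATG5, had -3.3 and -2.33 against -0.047 and -0.017, with 6.77 to 58.5 (median 11.4) RPM in spring GV and 0 to 2.45 (median 0.477) in spring MII oocytes. ATP6V0D1 and ATP6V0A1 had -1.51 and -1.5 in spring and -1.92 and -1.84 in summer. In all, 15 members were called lower in both seasons on RPM, beside 22.8% of all genes, and none was called higher in both, beside 2.74%, with ATG12 and LAMP2 past the adjusted threshold as higher in both. The main direction of every gene called on FPKM was the same on each scale tried.

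**Figure D4:**
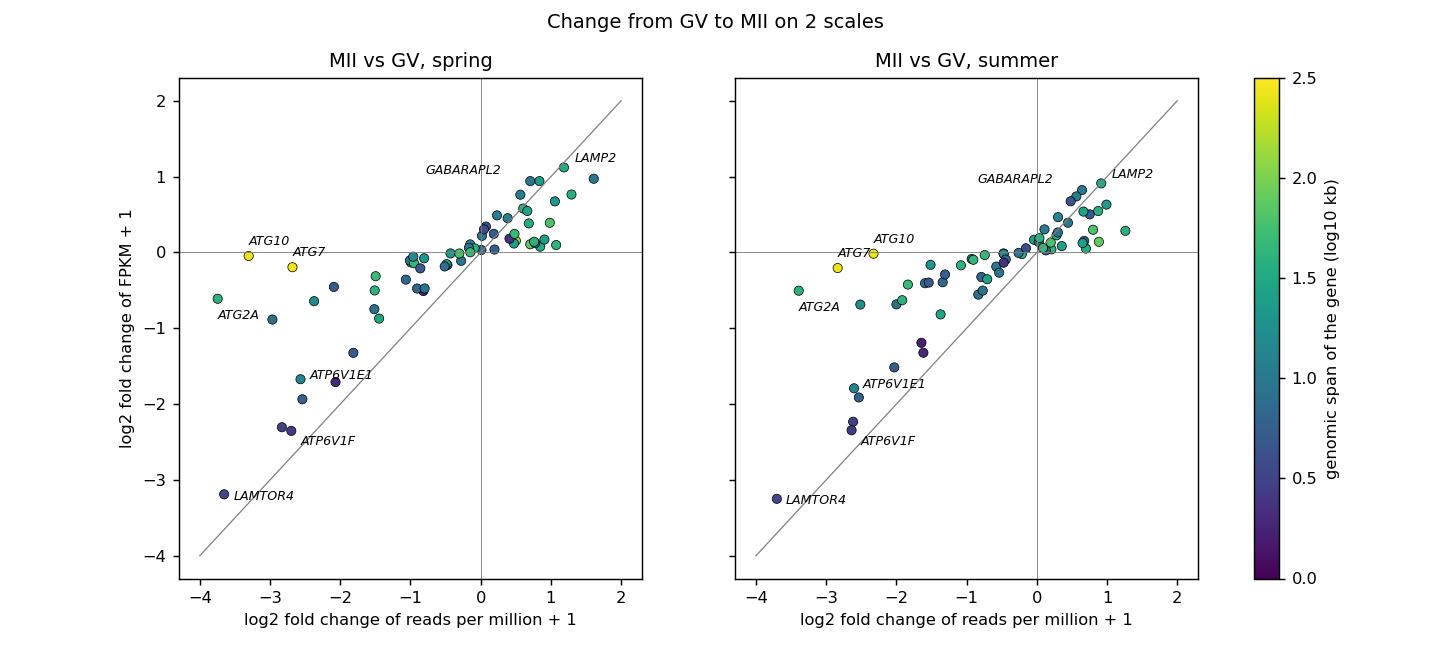
Log2 fold change from GV to MII of the 66 members tested on log2(FPKM + 1) (vertical) against log2(RPM + 1) (horizontal), in spring (left) and summer (right), colored by genomic span; the diagonal marks equal values. LAMTOR4, of short span, lies near the diagonal (-3.65 and -3.7 against -3.19 and -3.25), while ATG7, at a span of 274 kb, lies at -2.68 and -2.84 on the horizontal and -0.2 and -0.21 on the vertical axis.

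Other genes of the same pathways were counted from lists that hold none of the members, by the same calls that took 8.25% of all genes as lower and 3.57% as higher in spring, and 9.26% and 2.2% in summer. Of 16 further autophagy genes tested, 1 was called higher in spring and none in summer, and the gene was TAX1BP1, a cargo receptor (2.68 ± 1.65 FPKM in GV and 7.92 ± 1.64 FPKM in MII oocytes, SD, n = 6; log2 fold change 1.36 ± 0.27, adjusted p = 0.00348 by limma). Among 10 genes of nutrient sensing at the lysosome, 2 were called lower and 1 higher in spring, and 3 lower in summer. AKT1S1 had the smallest p of this list in spring, at 6.90 ± 2.97 FPKM in GV and 1.23 ± 0.808 FPKM in MII oocytes (log2 fold change -1.79 ± 0.32, adjusted p = 0.00183 by limma). MLST8, a subunit of mTOR complexes, was lower in both seasons: 3.24 ± 2.31 FPKM in GV and 0.267 ± 0.208 FPKM in MII oocytes in spring (log2 fold change -1.56 ± 0.33, adjusted p = 0.00559 by limma) and 2.49 ± 1.77 FPKM in GV and 0.194 ± 0.168 FPKM in MII oocytes in summer (log2 fold change -1.44 ± 0.26, adjusted p = 0.00122). RRAGC, one of the Rag GTPases that Ragulator tethers, was the gene called higher in spring, at 3.02 ± 2.55 FPKM in GV and 13.4 ± 12.6 FPKM in MII oocytes (log2 fold change 1.67 ± 0.47, adjusted p = 0.0211 by limma).

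NPRL2, a brake on mTORC1, was lower in summer, at 5.21 ± 1.99 FPKM in GV and 0.924 ± 0.506 FPKM in MII oocytes (log2 fold change -1.68 ± 0.26, adjusted p = 0.000515 by limma). Of 38 other lysosomal enzymes and membrane proteins, none was called in spring and 1 was called lower in summer, the tetraspanin CD63, at 56.7 ± 12.8 FPKM in GV and 27 ± 4.37 FPKM in MII oocytes (log2 fold change -1.03 ± 0.19, adjusted p = 0.00155 by limma). Among 5 genes of V-ATPase assembly and regulation, ROGDI was called lower in both seasons, at 3.42 ± 2.20 FPKM in GV and 0.819 ± 0.392 FPKM in MII oocytes in spring (log2 fold change -1.15 ± 0.32, adjusted p = 0.0193 by limma) and 3.32 ± 1.81 FPKM in GV and 0.655 ± 0.369 FPKM in MII oocytes in summer (log2 fold change -1.32 ± 0.26, adjusted p = 0.00226). The median log2 fold changes of these 4 lists lay between -0.18 and 0.1, beside -0.031 and -0.025 over all genes.

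Leaving out the 3 poorly mapped libraries, 8 members were called lower in spring, beside 8.87% of all genes in that fit, and 8 in summer, beside 9.03%. Called higher were 1 in spring, beside 4.02%, and 2 in summer, beside 3.52%. GABARAPL2 then took the place of LAMP2 in spring, and LAMP2 and SQSTM1 were called in summer.

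The seasonal comparison asks whether oocytes of July differed from those of May at the same stage. No member passed the call rule at either stage by limma. In GV oocytes 0 of 66 were called, beside 0.0315% of all genes, and 4 had an unadjusted p under 0.05, beside 1.55%. In MII oocytes 0 were called, beside 0.042%, and 0 had an unadjusted p under 0.05, beside 2.11%. RPM gave 2 such members in GV and 0 in MII oocytes, counts without a share over all genes and so no result about the members. Every member's adjusted p was 1 at both stages. The 95% intervals of the log2 fold changes had a median half-width of 0.42 in GV and 0.38 in MII oocytes, and the members' medians were -0.015 and -0.035, where all genes had 0.012 and -0.011. These values are on FPKM + 1, which presses changes and intervals of members with low FPKM toward 0. ATG10, for example, was 1.93-fold lower in mean FPKM in summer GV oocytes, at a log2 fold change of -0.03 with a half-width of 0.055. The widths therefore do not bound changes in FPKM itself.

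The 4 members with an unadjusted p under 0.05 in GV oocytes were GABARAP, BECN1, ATP6V1G2 and ATP6V1C1. GABARAP was at 26.3 to 42.8 (median 31.6) FPKM in spring and 17.6 to 30.8 (median 19.7) in summer, so that 1 summer library, replicate 3, lay in the spring range. Its log2 fold change from spring to summer was -0.62 ± 0.21 (limma, unadjusted p = 0.0103, adjusted p = 1), and the exact permutation test over libraries gave two-sided p = 0.00649 before adjustment. The unadjusted p stayed under 0.05 without each library in turn and without the poorly mapped ones. GABARAP had -0.23 ± 0.25 in MII oocytes (adjusted p = 1).

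BECN1 was higher in summer, from 0.178 to 0.713 (median 0.591) FPKM in spring to 0.615 to 2.23 (median 0.904) in summer GV oocytes. The ranges overlapped, at a log2 fold change of 0.41 ± 0.18 (limma, unadjusted p = 0.0405, adjusted p = 1), and without the poorly mapped libraries it was 0.2 with an unadjusted p of 0.0817 by limma. ATP6V1C1 had 0.36 ± 0.16 (unadjusted p = 0.0481, adjusted p = 1, limma) and lost p under 0.05 when any of 9 single libraries was left out, while ATP6V1G2, at 0.01 to 0.152 (median 0.0311) FPKM in spring and 0.0423 to 0.437 (median 0.177) in summer GV oocytes, is counted on very few reads.

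**Figure D5:**
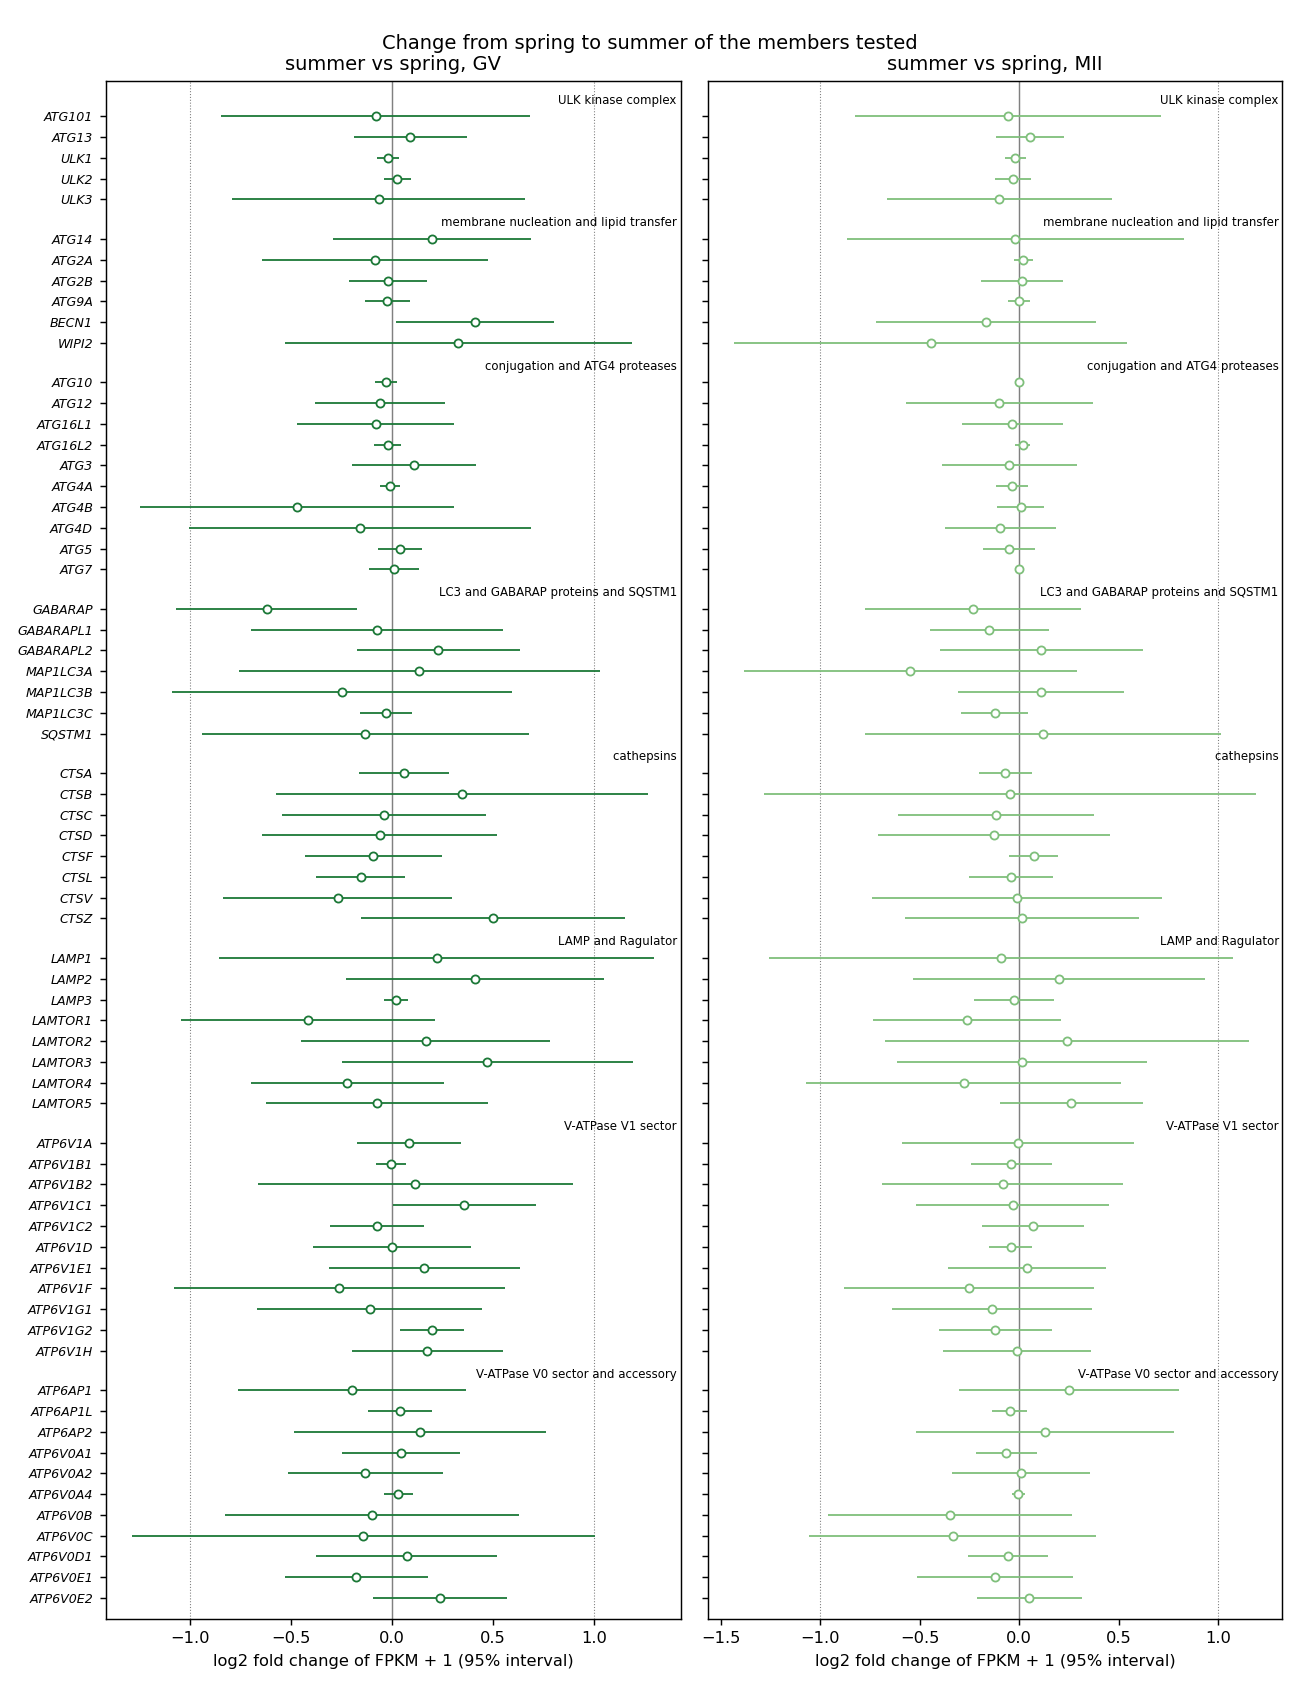
Log2 fold change from spring to summer of the 66 members tested in GV (left) and MII oocytes (right), with 95% intervals from limma on log2(FPKM + 1), grouped by role; dotted lines mark a 2-fold change. No point passes the call rule, and values run from -0.62 for GABARAP to 0.5 for CTSZ in GV and from -0.55 for MAP1LC3A to 0.26 for LAMTOR5 in MII oocytes.

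Whether maturation changed these genes by different amounts in the 2 seasons was fitted as an interaction over all 24 libraries. No member was called, beside 0.21% of all genes, and 0 had an unadjusted p under 0.05 by limma, beside 1.8%. On RPM 1 had, BECN1, a count without a share over all genes, and BECN1 had only 1 read in spring GV replicate 6. The differences, summer change minus spring change, ran from -0.77 ± 0.62 for WIPI2 to 0.48 ± 0.37 for ATG4B on the log2 scale. Their 95% intervals had a median half-width of 0.59, again on FPKM + 1, where members with low FPKM are pressed toward 0. For LAMTOR4 the difference was -0.059 ± 0.43, for ATP6V1F 0.0086 ± 0.49, and for LAMTOR2 0.072 ± 0.51, each well inside its error. GABARAP, whose mean was lower in summer GV oocytes, had a difference of 0.39 ± 0.32 (limma, adjusted p = 1).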

How the data were processed

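RNA was measured in 24 libraries, 6 for each of 4 groups, made with the Smart-seq2 v4 and Nextera XT kits and read as paired ends. The authors trimmed the reads, aligned them with STAR 2.5.3a to UMD3.1.1 and deposited FPKM for 11306 genes. Per the submitters' notes, FastQC and Partek were also used, and whether counting used strand is not given in the sources used here. Deposited columns share a total of about 86768 FPKM, and each value holds an added 0.01. The labels speak of individual cells, and the methods of pools of 4 oocytes, which were followed. P-values measure the spread between these libraries, which were treated as independent although groups share cows.

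R 4.3.3 and limma 3.58.1 were used to test entries over 0.1 FPKM in at least 1 library on log2(FPKM + 1), with the spread following mean expression and 2 groups per fit; the difference between seasons used all 4. Calls needed a fold over 2 and p under 0.05 before adjustment, the thresholds of the study, and Benjamini-Hochberg adjustment ran over all genes. The study applied those thresholds with the Partek GSA algorithm, whereas here the fold is that of FPKM + 1 in limma. Counts of calls here are therefore not on the study's own criterion. Single genes had a two-sided exact permutation test over 924 assignments of libraries. Recovery of reads from the steps between values used pandas 2.3.3, numpy 2.4.6 and Python 3.11.15, and RPM are these reads scaled to 1e+06 per library; since the deposited unit is not a count, no count model was run. Intervals for counting error are not given. The steps and the limma fit were tested on simulated data.

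The members and lists were chosen with earlier results of these data known. Named are members called in any comparison, members with an unadjusted p under 0.05 in a seasonal comparison, and the member with the highest mean FPKM of each role, a choice that depends on genomic span and ranks no levels; others given as partners or extremes were chosen after their values were seen. Alternatives were a pseudocount of 0.1 or none, no filter or a mean of at least 1, quantile or median-of-ratios scaling, one fit of all 4 groups, no libraries under 70% mapped, the replicate number as a block, each library left out, and, added after the data had been seen, span removal and RPM. Gene names and positions are those of the deposited table. No sequence is printed.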

Additional observations from a re-analysis of the deposited data

Results flagged for a closer look

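In 72 groups of 6 libraries, 4 for each of 18 named members, 11 had 1 library standing apart from the rest by Dixon's 95% limit. About 1 in 20 independent groups of normal values would pass that limit. These groups reuse the same 24 libraries and hold FPKM of members partly chosen by p, so the 11 cannot be set against that rate. Of the 11 values, 7 came from the 3 libraries with under 70% of reads mapped, and their part in the results was not tested beyond the fits without them.

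Summer GV replicate 2 gave 4 of them. LAMTOR4 was lowest there at 36.4 FPKM, with the next library at 54.5, and ATP6V1F was lowest at 21.6, with the next at 58.3. LAMP2 was highest at 8.57 (next 3.37) and WIPI2 was highest at 18.9 (next 5.86). Spring GV replicate 6 held the lowest BECN1, 0.178 FPKM (next 0.566), and the lowest LAMTOR2, 10.5 (next 29.5). Spring MII replicate 6 held the highest ATP6V1G2, 0.857 (next 0.187).

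In the other libraries, GABARAP was highest in summer GV replicate 3 at 30.8 FPKM (next 20.9), and ATP6V1G2 was highest in spring GV replicate 4 at 0.152 (next 0.0595). ATG12 was lowest in spring MII replicate 3 at 0.912 (next 1.67) and highest in summer MII replicate 2 at 3.75 (next 1.55).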

How the results depend on the processing

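The 7 members called lower in spring became 14 with a pseudocount of 0.1, 16 with no pseudocount, 16 with the span removed and 17 on RPM, and the 8 lower in summer became 17, 20, 20 and 20 under the same settings, which all lessen the weight that a pseudocount of 1 has on genes of low FPKM, of long or short span. Genes at large were also called lower more often on RPM, 26.5% in spring and 29.9% in summer, beside 8.25% and 9.26% on the deposited scale. Shares over all genes for most other settings are not given here, so these counts are no result about the members. The 1 member higher in spring became 5, 7, 7 and 4 there, 4 with quantile normalization, 0 with median-of-ratios scaling, and 1 to 3 without 1 library, most without spring MII replicate 2. None higher in summer became 2, 4, 3 and 1, then 2 with quantile normalization, 2 without libraries under 70% mapped, and 0 to 2 without 1 library, 2 of them without summer GV replicate 2 and 1 without summer MII replicate 1 or 3. Between seasons in GV oocytes, 1 member, ATP6V1G2, was called with no pseudocount and 1 with the span removed. The difference between seasons called 2 members at a pseudocount of 0.1, 2 with none, 1 with the span removed and 1 on RPM, each time BECN1, with ATP6V1G2 as the second; the cause was not tested. BECN1 had 1 read in spring GV replicate 6, and these settings were not fitted without the poorly mapped libraries. The members' median log2 fold change moved to -0.22 in spring on RPM, and in summer to -0.46 with the span removed and -0.47 on RPM. No named member changed direction among called values under these settings. With the replicate number as a replicate block the counts were 7 lower and 1 higher in spring, 8 and 0 in summer and 0 in the others; deviations of same-numbered libraries from their group means correlated between -0.44 and 0.76 over 24 pairs, 12 of them over 0.1 and 9 best with their own number. The counts of best partners were 2 of 6 in spring maturation, 3 in summer maturation, 0 between seasons in GV and 4 in MII oocytes. In no comparison were all 6 over 0.1, and no source ties a number to a cow, so the numbers were not taken as pairs. No named member gained or lost a maturation call under the block, and the unadjusted p for the season in GV oocytes went over 0.05 for ATP6V1C1 (limma, 0.0992) and BECN1 (limma, 0.073). Spring GV replicate 6, at 324654 recovered reads, limits what its low values show.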
